A study of Mus musculus with 4 samples.

Results

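The nuclear pore complex genes described here encode the proteins of the channel that spans the nuclear envelope. They were chosen by name: symbols made of Nup and a number (Nupl1 and Nupl2 included, the older symbols of Nup58 and Nup42), plus Ranbp2, Tpr, Pom121, Ndc1, Aaas, Rae1, Seh1l and Sec13. Earlier results of these data were known when this group and the related lists below were chosen. The symbols matched 29 of the 52550 annotated genes in the table, and 28 of them reached 1 FPKM (fragments per kilobase of transcript, scaled to the size of the library) in at least 1 library. The one left out, Nupl1, peaked at 0.0524 FPKM, and the lowest gene inside the limit, Nup210, at 1.18 FPKM. Expression was measured by RNA-seq in macrophages grown from mouse bone marrow (7 days, M-CSF at 20 ng/mL, the cytokine that drives macrophage differentiation). The 4 libraries were OGT knockout after 24 h of IL-4 at 20 ng/mL, OGT knockout at 0 h, wild type (WT) after 24 h of IL-4 and WT at 0 h, with 1 library each. The labels tag all 4 samples with IL-4, and the time of 0 h was taken to mean that no IL-4 had been given yet. An untreated culture at 24 h was not analysed here, so IL-4 and time in culture cannot be told apart. Nothing was found in the labels on the mice themselves, on which part of Ogt was deleted, or on how.

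The nuclear pore is built in layers. An outer ring (the Y complex) and an inner ring form the scaffold, membrane proteins anchor it in the envelope, and proteins rich in phenylalanine-glycine (FG) repeats line the channel and form filaments towards the cytoplasm and a basket in the nucleus. Importins and exportins carry cargo through the FG repeats, and the small GTPase Ran sets the direction of transport. OGT, which attaches O-linked N-acetylglucosamine to serines and threonines of nuclear and cytoplasmic proteins, modifies many FG nucleoporins, and the modification is on the protein, which RNA does not show.

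With 1 library per group, no difference below can be set against a spread between replicates, and no p-value is given. A difference is the log2 ratio of FPKM + 1, which understates differences of genes near 1 FPKM, and 1.5-fold and 2-fold on that scale are used as marks of size. The FPKM totals lay between 338704 and 353093. The depth is not stated, and the spacing of low values in genes with 1 exon gave an estimate of 20.1 to 21.9 fragments per kilobase of transcript at 1 FPKM. Ogt itself stood at 14.5 FPKM at 24 h and 14.2 FPKM at 0 h in the knockout, and at 29.8 FPKM at 24 h and 27.4 FPKM at 0 h in WT. The knockout libraries thus still held Ogt RNA. These are values of the whole gene, so they do not show how many intact Ogt transcripts remained. Mgea5, which encodes the enzyme that removes the sugar, was also lower in the knockout, at 10.6 and 14.9 FPKM at 24 h and 0 h, against 23.4 and 31.4 FPKM in WT. Of the genes used as IL-4 markers, Arg1, Retnla, Chil3 and Il4i1 were higher at 24 h by more than 2-fold in both genotypes, and Mrc1 by 0.69 (log2) in the knockout and 0.90 in WT. All 8 macrophage markers were present in every library. Their summed level was 9129 FPKM at 24 h and 18683 FPKM at 0 h in the knockout, and 8948 FPKM at 24 h and 21467 FPKM at 0 h in WT. Most of that difference is Lyz2, at 4148 and 12062 FPKM at 24 h and 0 h in the knockout, and at 4246 and 15193 FPKM in WT. All 8 markers were lower at 24 h in both genotypes. Of these, 4 were past 2-fold lower in each, against 5.99% of all genes in the knockout and 6.26% in WT. Besides Lyz2 they were Adgre1 (-1.44 in the knockout and -1.67 in WT), Mertk (-1.12 and -1.22) and Fcgr1 (-2.27 and -2.24). Cd68 differed by -0.04 in the knockout and -0.06 in WT, and Csf1r by -0.28 and -0.32. The 10 neutrophil markers summed to 729.8 FPKM at 24 h and 2180.3 FPKM at 0 h in the knockout, and to 1088 FPKM at 24 h and 3366 FPKM at 0 h in WT. The 4 megakaryocyte markers summed to 28.7, 47.4, 48.8 and 100.3 FPKM in the same order. B cell, T cell, basophil, erythroid, dendritic and fibroblast markers summed to at most 13.9 FPKM in any library, with Cd3e listed at 0 in both knockout libraries and Hbb-bs in all but WT at 0 h. Of the 10 neutrophil markers, 9 were lower at 24 h in both genotypes, and Cxcr2 was higher (0.58 in the knockout and 0.27 in WT). Against WT, 8 were lower in the knockout at 24 h and 9 at 0 h, beside 58.6% and 59.5% of all genes. Csf3r was higher in the knockout at both times (0.12 and 0.39), and Cxcr2 at 24 h (0.18). Most neutrophil markers, and the megakaryocyte sum, therefore differed with both time and genotype. Their part in the differences below was not tested. In bulk RNA, fewer cells of a type and less RNA per cell cannot be told apart.

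The pore genes spanned a wide range of levels in FPKM, which is per length and so allows genes to be compared. The highest by the mean of the 4 libraries were Ranbp2 at 27.8 FPKM, which encodes the giant SUMO ligase of the cytoplasmic filaments, and Tpr at 27.4 FPKM, the coiled-coil protein of the nuclear basket. Sec13, which also coats vesicles leaving the endoplasmic reticulum, followed at 24.6 FPKM, and Seh1l, another protein with a second complex outside the pore, at 13.9 FPKM. Nup50, Nup153, Nup62, Rae1 and Nup93 had means between 10.2 and 12.7 FPKM. The next 14 genes, down to Nup160 at 3.49 FPKM, had means of 8.02 FPKM or less. At the low end were Nup43 at 2.18, Nup35 at 1.87, Nupl2 at 1.69, Nup37 at 1.44 and Nup210 at 0.835 FPKM. Exons of 9 members overlap those of another annotated gene (Nup133, Nup188, Nup214, Nup35, Nup62, Nup88, Pom121, Seh1l and Tpr), which makes their values less certain. All but Nup37 and Nup210 were at 1 FPKM or more in every library. Within rings whose proteins sit in the pore in equal numbers, the RNA levels were not equal: in the Y complex, Nup37 was the lowest and Sec13 the highest. The members summed to 271 FPKM at 24 h and 224 FPKM at 0 h in the knockout, and to 264 FPKM at 24 h and 225 FPKM at 0 h in WT.

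**Figure D1:**
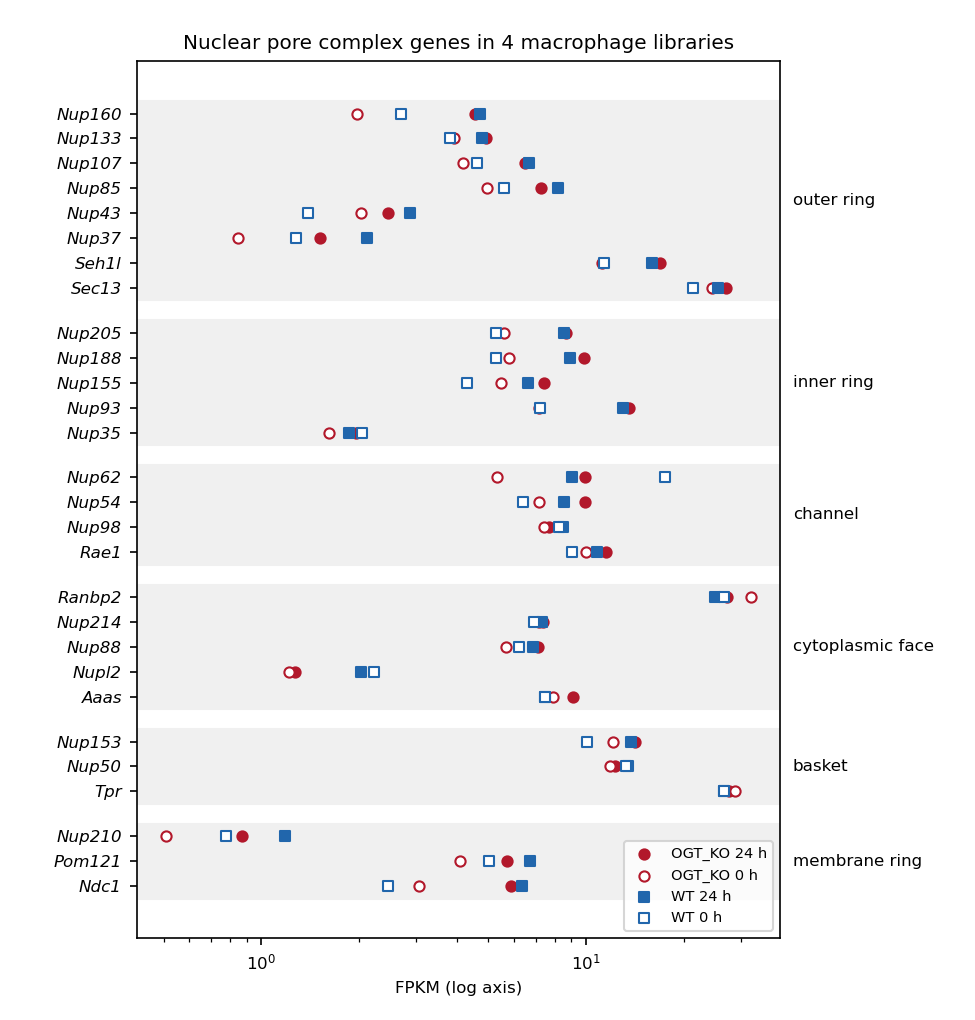
Level of each of the 28 nuclear pore genes in the 4 libraries, grouped by place in the pore, in FPKM on a log axis. Each point is 1 library, with no replicates, so there are no error bars. Ranbp2 and Tpr are the highest and Nup210 the lowest, and the points of Nup62 are spread the widest at 0 h.

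The promoters of a few members are shown because these genes carry the main patterns. The 250 bases before the transcription start were taken from RefSeq (GRCm38.p6), which matched 24 of the 28 genes with 27 windows. The gene positions given elsewhere are from GENCODE M21, by which some windows not printed reach into exons of their own gene. Nup35, Nup43, Nup85 and Seh1l had no entry. Nup62 differed in opposite directions with IL-4 in the 2 genotypes, Nup93, Nup107 and Nup160 were higher at 24 h in both, and Ranbp2 was lower at 24 h in both. None of the windows printed holds an annotated exon, and that of Nup62 (chr7:44815838-44816087, + strand) lies inside the gene Atf5 on the opposite strand. Those of the other genes are chr8:94214314-94214563 (Nup93, + strand, the first of its 2 windows), chr10:117792706-117792955 (Nup107, - strand), chr2:90676965-90677214 (Nup160, + strand) and chr10:58446602-58446851 (Ranbp2, + strand). Each is written 5′ to 3′ on the strand of its gene, and capitals mark motif matches on either strand.
Nup62: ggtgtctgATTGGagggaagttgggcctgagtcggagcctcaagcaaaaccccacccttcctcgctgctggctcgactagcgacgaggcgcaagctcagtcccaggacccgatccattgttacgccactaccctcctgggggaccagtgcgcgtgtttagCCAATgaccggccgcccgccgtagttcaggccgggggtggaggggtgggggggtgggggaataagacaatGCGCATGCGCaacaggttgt
Nup93: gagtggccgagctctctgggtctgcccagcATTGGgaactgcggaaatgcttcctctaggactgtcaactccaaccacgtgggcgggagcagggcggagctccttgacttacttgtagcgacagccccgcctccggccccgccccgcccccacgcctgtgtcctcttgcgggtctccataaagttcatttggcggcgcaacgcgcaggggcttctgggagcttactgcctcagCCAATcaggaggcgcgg
Nup107: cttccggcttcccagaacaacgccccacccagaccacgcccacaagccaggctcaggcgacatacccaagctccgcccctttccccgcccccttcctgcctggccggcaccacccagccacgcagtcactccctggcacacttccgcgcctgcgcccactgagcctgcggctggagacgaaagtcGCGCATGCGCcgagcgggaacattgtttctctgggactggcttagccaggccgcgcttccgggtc
Nup160: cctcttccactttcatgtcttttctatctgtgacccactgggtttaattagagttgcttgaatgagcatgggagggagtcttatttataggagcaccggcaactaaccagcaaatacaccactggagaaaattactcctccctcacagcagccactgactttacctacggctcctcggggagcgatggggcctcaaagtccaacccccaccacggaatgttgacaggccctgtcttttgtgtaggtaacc
Ranbp2: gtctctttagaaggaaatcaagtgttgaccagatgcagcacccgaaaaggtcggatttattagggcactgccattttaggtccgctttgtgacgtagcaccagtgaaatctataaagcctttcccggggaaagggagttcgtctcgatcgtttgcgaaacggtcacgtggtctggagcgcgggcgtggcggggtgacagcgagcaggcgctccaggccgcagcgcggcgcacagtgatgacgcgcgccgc

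Motifs of 5 factor families were searched on both strands, and no match in these windows overlapped another. The CCAAT box (CCAAT) was found in 12 of the 27 member windows (44.4%), against 33.8% of all 32851 promoter windows. The capitals in Nup62 are an ATTGG and a CCAAT, at 242 to 238 and 90 to 86 bases before the start, and an NRF1 motif (GCGCA followed by its reverse complement) at 20 to 11 bases. This NRF1 motif was in 3 member windows (11.1%), those of Nup107, Nup50 and Nup62, and in 0.8% of all windows. The ETS motif (ACTTCCGG) was in 4 member windows (14.8%), those of Aaas, Nup155, Nup54 and Sec13, and in 2.9% of all. The E2F motif (TTTCCCGC, TTTCGCGC, TTTGGCGC or TTTGCCGC) was in the Nup210 window only (3.7%, against 1.9% of all), and the STAT6 motif (TTC, then 4 bases of any kind, then GAA) in the Ndc1 window only (3.7%, against 5.9%). None of the motifs was found in the Nup160 or Ranbp2 windows. By GENCODE M21, the Ndc1 window (chr4:107367797-107368046) lies wholly inside Ndc1, so its STAT6 motif is within the gene. The windows of Aaas, Nup155, Nup54, Sec13, Nup50 and Nup210 also hold exon bases of their own gene. The member windows were richer in G and C, with a median of 64.0% against 52.4%, and a match is a run of letters, not a shown binding site.

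The first comparison was the IL-4 response of each genotype, 24 h against 0 h. Most pore genes were higher at 24 h: 25 of 27 measured in the knockout and 24 of 28 in WT, where 52.7% and 52.0% of all genes were. The median log2 difference was 0.28 in the knockout and 0.33 in WT, against 0.03 and 0.02 over all genes. In the knockout 5 members were past 1.5-fold higher, against 13.8% of all genes, and none was past 1.5-fold lower, against 13.4%. In WT 6 were past 1.5-fold higher and 1 was lower, against 13.3% of all genes in each direction, and only Ndc1 was past 2-fold higher, against 4.76%. No member was past 2-fold higher in the knockout, against 5.16%. Members past 1.5-fold thus lay almost all on the higher side, where all genes were divided evenly. Of the members counted, Nup37 in the knockout and Nup210 in WT reached 1 FPKM at 24 h only, which fixes their direction. With the libraries rescaled to a common median ratio, 21 of 27 members were above 0 in the knockout and 20 of 28 in WT, beside 47.9% and 47.2% of all genes. The members that changed sign were Nup98, Nup214, Nupl2 and Nup50 in the knockout, and Nup98, Aaas, Nup50 and Tpr in WT, all with differences of at most 0.05.

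A count over the 4 libraries together gave the same direction. Both 24 h libraries lay above both 0 h libraries for 20 of the 28 members (71.4%), where this held for 35.3% of 12000 genes. Of the 20, Nup210 reached 1 FPKM in WT at 24 h only, so the filter itself made a 24 h library its highest. The reverse order, both 24 h libraries below both 0 h libraries, was found for 0 members, against 31.5% of all genes. The 8 members with overlap between the times were Nup35, Nup62, Nup98, Ranbp2, Nupl2, Aaas, Nup50 and Tpr. The 2 responses share no library. Across 27 members they had a Pearson r of 0.45 and a Spearman rho of 0.69, which were 0.84 and 0.86 over the 26 without Nup62. Members are not independent replicates, and low levels and shared exons enter both responses.

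**Figure D2:**
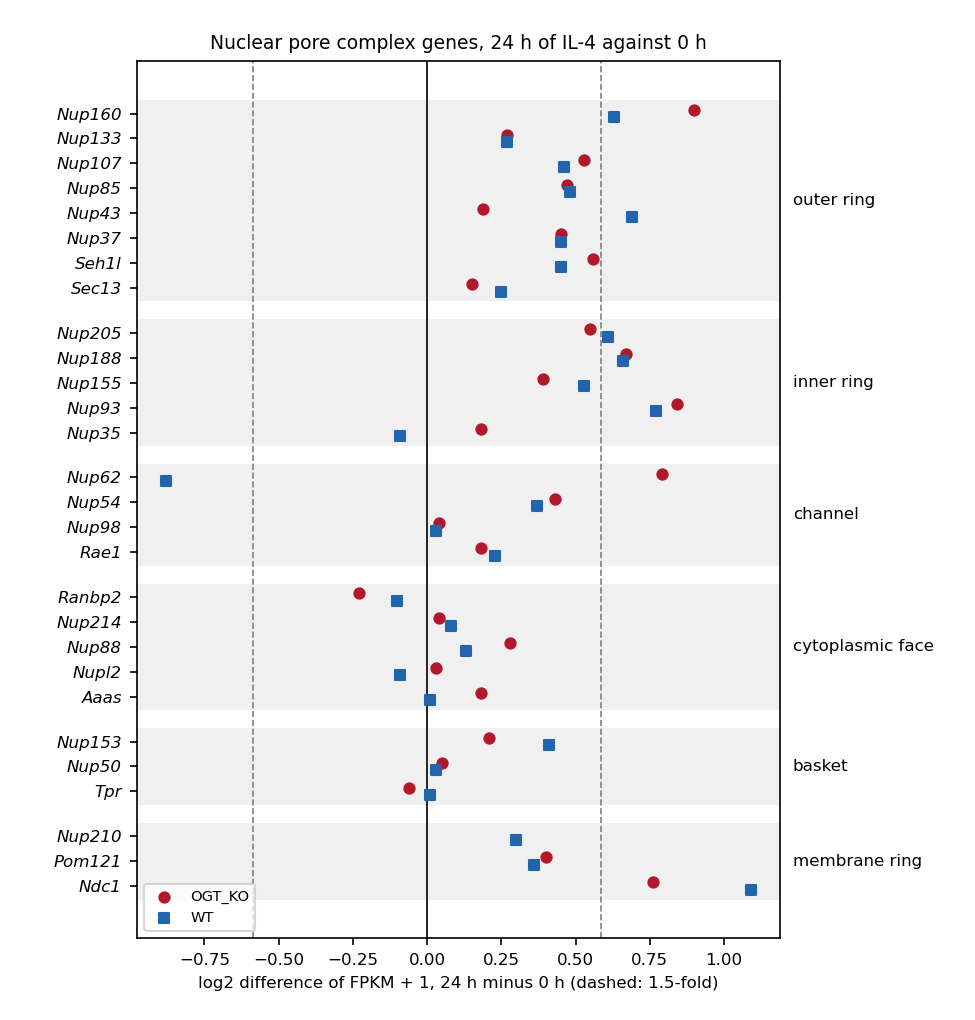
IL-4 response of each nuclear pore gene, as the log2 difference of FPKM + 1 between 24 h and 0 h, in the knockout and in WT, with genes grouped by place in the pore. Scaffold and membrane genes lie mostly between 0.15 and 1.09, genes of the cytoplasmic face and basket between -0.23 and 0.41, and Nup62 lies at 0.79 in the knockout and -0.88 in WT.

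The outer ring is the Y-shaped scaffold that coats the curved membrane. It was higher at 24 h in 8 of 8 members in both genotypes, where 52.7% of all genes were in the knockout and 52.0% in WT. Its medians were 0.46 in the knockout and 0.45 in WT. Nup37, one of the 8, reached 1 FPKM in the knockout at 24 h only, which fixes its direction there. Nup160, a long arm of the Y, stood at 4.56 FPKM at 24 h and 1.97 FPKM at 0 h in the knockout, and at 4.73 FPKM at 24 h and 2.70 FPKM at 0 h in WT. Its log2 difference was 0.90 in the knockout, the largest of any member there, and 0.63 in WT. Nup160 lies on chromosome 2 (90677215 to 90736328, + strand). Nup107, in the stem of the Y, stood at 6.49 and 4.18 FPKM at 24 h and 0 h in the knockout, and at 6.67 and 4.60 FPKM in WT (0.53 and 0.46). Nup85, in a short arm, stood at 7.29 and 4.97 FPKM at 24 h and 0 h in the knockout, and at 8.19 and 5.58 FPKM in WT (0.47 and 0.48). For both genes the 2 libraries of a time lay together and apart from those of the other time. Nup133, at the tip of the stem, stood at 4.92 and 3.93 FPKM at 24 h and 0 h in the knockout, and at 4.78 and 3.80 FPKM in WT (0.27 in both). Seh1l, a beta-propeller that binds Nup85, stood at 16.9 and 11.2 FPKM at 24 h and 0 h in the knockout, and at 16.0 and 11.4 FPKM in WT (0.56 and 0.45). Sec13, the propeller next to Nup96, was less different with time, at 27.1 and 24.4 FPKM at 24 h and 0 h in the knockout, and at 25.5 and 21.3 FPKM in WT (0.15 and 0.25).

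The remaining outer ring genes were low and their values rest on few reads. Nup43 stood at 2.45 and 2.02 FPKM at 24 h and 0 h in the knockout, and at 2.86 and 1.39 FPKM in WT, and was past 1.5-fold in WT (0.69) and not in the knockout (0.19). Its values correspond to an estimated 39 to 78 fragments. Without a pseudocount its log2 ratios were 0.28 in the knockout and 1.04 in WT, with counting errors of about 0.27 and 0.28. Nup37, a propeller bound to Nup160, stood at 1.52 and 0.849 FPKM at 24 h and 0 h in the knockout, and at 2.11 and 1.28 FPKM in WT (0.45 in both), from an estimated 22 to 57 fragments. Without a pseudocount the ratios of Nup37 were 0.84 in the knockout and 0.72 in WT, with counting errors of about 0.38 and 0.31, so the size of its difference is loosely set at this depth.

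The inner ring, which holds the channel open, had medians of 0.55 in the knockout and 0.61 in WT, and summed to 41.5 FPKM at 24 h and 25.6 FPKM at 0 h in the knockout, and to 39.0 FPKM at 24 h and 24.1 FPKM at 0 h in WT. Nup93, the linker that ties the ring's other subunits together (chromosome 8, 94214564 to 94317227, + strand), stood at 13.6 FPKM at 24 h and 7.18 FPKM at 0 h in the knockout, and at 13.0 FPKM at 24 h and 7.21 FPKM at 0 h in WT. Its differences were 0.84 in the knockout and 0.77 in WT. Nup188, a large ring-shaped scaffold protein, stood at 9.86 and 5.80 FPKM at 24 h and 0 h in the knockout, and at 8.92 and 5.29 FPKM in WT (0.67 and 0.66). Nup93 and Nup188 were past 1.5-fold in both genotypes, and both differed by at most 0.13 between genotypes. Nup205, the paralog of Nup188, stood at 8.67 and 5.59 FPKM at 24 h and 0 h in the knockout, and at 8.57 and 5.29 FPKM in WT (0.55 and 0.61). Nup155, which links the ring to the membrane, stood at 7.43 and 5.46 FPKM at 24 h and 0 h in the knockout, and at 6.65 and 4.31 FPKM in WT (0.39 and 0.53). Nup35, which binds the membrane, was the exception, at 1.95 and 1.61 FPKM at 24 h and 0 h in the knockout, and at 1.86 and 2.04 FPKM in WT (0.18 and -0.09). Its 4 values overlap between the times and rest on an estimated 50 to 70 fragments each.

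Among the membrane proteins, Ndc1 was the only pore gene past 2-fold with IL-4. Ndc1, a multi-pass protein that anchors the pore in the envelope (chromosome 4, 107367784 to 107416346, + strand), stood at 5.87 FPKM at 24 h and 3.06 FPKM at 0 h in the knockout, and at 6.34 FPKM at 24 h and 2.46 FPKM at 0 h in WT. Its differences were 0.76 in the knockout and 1.09 in WT. Pom121, which has a transmembrane anchor and FG repeats, stood at 5.70 and 4.09 FPKM at 24 h and 0 h in the knockout, and at 6.73 and 5.02 FPKM in WT (0.40 and 0.36). Nup210, a single-pass membrane protein that reaches into the envelope lumen, stood at 0.870 and 0.507 FPKM at 24 h and 0 h in the knockout, and at 1.18 and 0.780 FPKM in WT. Nup210 was above 1 FPKM in WT at 24 h alone, so the difference with IL-4 was computed in WT only (0.30).

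The cytoplasmic face and the nuclear basket had medians near 0 over time, with Nup153 and Nup88 further from it. The medians of the 5 cytoplasmic genes were 0.04 in the knockout and 0.01 in WT, and those of the 3 basket genes were 0.05 in the knockout and 0.03 in WT. Ranbp2 stood at 27.3 and 32.2 FPKM at 24 h and 0 h in the knockout, and at 24.9 and 26.7 FPKM in WT, lower at 24 h in both genotypes (-0.23 and -0.10). Nup214, the FG protein that docks the export helicase, stood at 7.39 and 7.16 FPKM at 24 h and 0 h in the knockout, and at 7.33 and 6.91 FPKM in WT (0.04 and 0.08). Its partner Nup88 stood at 7.10 and 5.66 FPKM at 24 h and 0 h in the knockout, and at 6.89 and 6.24 FPKM in WT (0.28 and 0.13). Aaas, which encodes the propeller protein ALADIN, was above its other 3 values in the knockout at 24 h, at 9.09 FPKM, with 7.92 FPKM in the knockout at 0 h, 7.49 FPKM in WT at 24 h and 7.46 FPKM in WT at 0 h (0.18 and 0.01). Nupl2, the small FG protein known as Nup42 that works with the export factor Gle1, stood at 1.27 and 1.22 FPKM at 24 h and 0 h in the knockout, and at 2.03 and 2.22 FPKM in WT (0.03 and -0.09).

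In the basket, Nup153, an FG protein that binds importins and chromatin, stood at 14.2 and 12.1 FPKM at 24 h and 0 h in the knockout, and at 13.8 and 10.1 FPKM in WT (0.21 and 0.41). It was the one basket gene with both 24 h values above both 0 h values. Nup50, a mobile FG protein that helps take apart import complexes, stood at 12.3 and 11.9 FPKM at 24 h and 0 h in the knockout, and at 13.5 and 13.3 FPKM in WT (0.05 and 0.03). Tpr stood at 27.6 and 28.7 FPKM at 24 h and 0 h in the knockout, and at 26.7 and 26.6 FPKM in WT (-0.06 and 0.01).

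The genes of the central channel did not move as one. Nup54, an FG protein of the channel complex, stood at 9.96 and 7.15 FPKM at 24 h and 0 h in the knockout, and at 8.57 and 6.41 FPKM in WT (0.43 and 0.37). Nup98, whose cohesive FG repeats make up much of the permeability barrier, stood at 7.70 and 7.44 FPKM at 24 h and 0 h in the knockout, and at 8.48 and 8.26 FPKM in WT (0.04 and 0.03). Its RNA also encodes Nup96 of the outer ring, and gene-level values do not part the proteins. Rae1, the mRNA export factor bound to Nup98, stood at 11.5 and 10.0 FPKM at 24 h and 0 h in the knockout, and at 10.8 and 9.07 FPKM in WT (0.18 and 0.23). Nup54 and Rae1 had both 24 h values above both 0 h values, and Nup98 was ordered by genotype instead.

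Nupl1, the third FG subunit of the channel complex, was left out by its level, between 0.0157 and 0.0524 FPKM. In GENCODE M21 the symbol Nupl1 names only a transcript marked for nonsense-mediated decay, while the RefSeq transcripts of Nupl1 match those of a gene named Gm49336. Gm49336, which shares 1756 of the 3602 exon bases of Nupl1, stood at 5.96 and 3.74 FPKM at 24 h and 0 h in the knockout, and at 6.90 and 4.22 FPKM in WT. Its IL-4 differences were 0.55 in the knockout and 0.60 in WT. How the authors' counting divided reads between the 2 genes is not known.

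A split by FG repeats and by place gives the same picture, where the rings were joined into 1 group after their values were seen. The 9 measured FG genes had medians of 0.05 in the knockout and 0.03 in WT, and the members without FG repeats had medians of 0.42 in the knockout (18 genes) and 0.45 in WT (19 genes). Most FG genes were still above 0, with 8 of 9 in the knockout and 6 of 9 in WT. Among the members without FG repeats, 17 of 18 and 18 of 19 were above 0. The 2 groups thus differed more in size than in direction. The 13 scaffold ring genes had medians of 0.47 and 0.48, with 13 above 0 in the knockout and 12 in WT, beside 52.7% and 52.0% of all genes. The 13 in the knockout include Nup37, which reached 1 FPKM there at 24 h only. The scaffold ring genes summed to 113 FPKM at 24 h and 79.1 FPKM at 0 h in the knockout, and to 109.8 FPKM at 24 h and 76.2 FPKM at 0 h in WT. The other 15 genes summed to 158 FPKM at 24 h and 145 FPKM at 0 h in the knockout, and to 154 FPKM at 24 h and 149 FPKM at 0 h in WT. The difference in sums with time was thus larger in the scaffold. The sum of the other 15 includes Nup62, which in WT stood at 9.07 FPKM at 24 h and 17.5 FPKM at 0 h. That lowers their difference in WT. Outside the scaffold, 12 of 14 measured genes were above 0 in the knockout and 12 of 15 in WT. The difference between these groups was not tested.

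**Figure D3:**
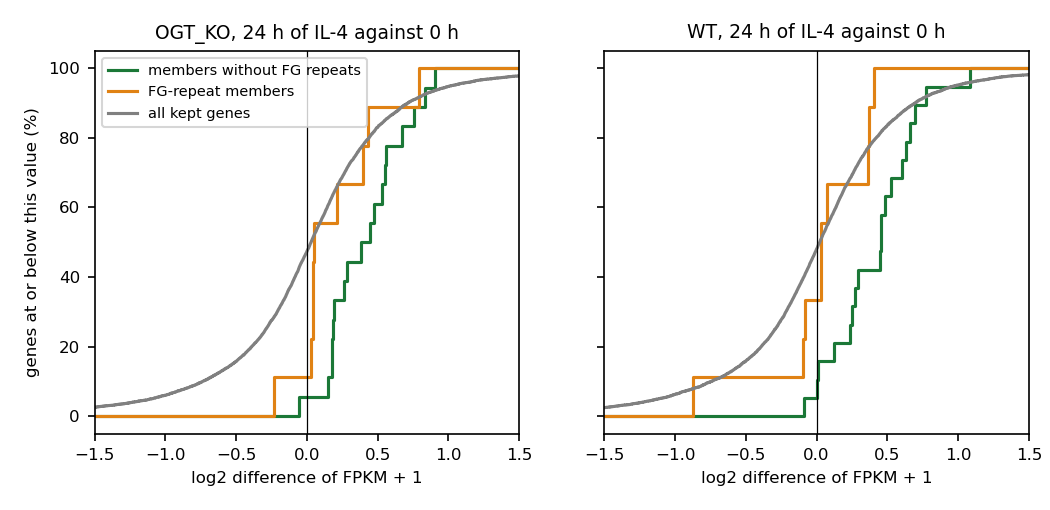
Cumulative share of genes by IL-4 response (log2 difference of FPKM + 1), in the knockout and in WT, for pore genes without FG repeats, pore genes with FG repeats and all measured genes. The curve of the genes without FG repeats lies to the right of that of all genes over most of the range, with medians of 0.42 in the knockout and 0.45 in WT, while the medians of the FG genes are 0.05 and 0.03.

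The next comparison was the knockout against WT at each time. The pore genes were close in the 2 genotypes. At 24 h, 17 of 28 were higher in the knockout, against 41.4% of all genes, with a median of 0.04 against -0.05 over all genes. Without the members that share exons with another gene, this median was -0.03 over 19 members. None was past 1.5-fold, against 2.91% of all genes higher and 2.47% lower. At 0 h, 14 of 27 were higher in the knockout, against 40.5% of all genes, with the same medians of 0.04 and -0.05. None was past 1.5-fold higher, against 2.78%, and 1 was lower, against 3.34%. That gene, Nup62, was also past 2-fold lower, against 0.871% of all genes. Of the members counted, Nup210 at 24 h and Nup37 at 0 h reached 1 FPKM in WT only, which fixes their direction. At 24 h 27 of 28 members, and at 0 h 24 of 27, were within 1.25-fold. The median size of the difference, whatever its sign, was 0.11 at 24 h and 0.14 at 0 h, beside 0.15 and 0.16 over all genes. These sizes lie near those of all genes and are not particular to the pore.

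**Figure D4:**
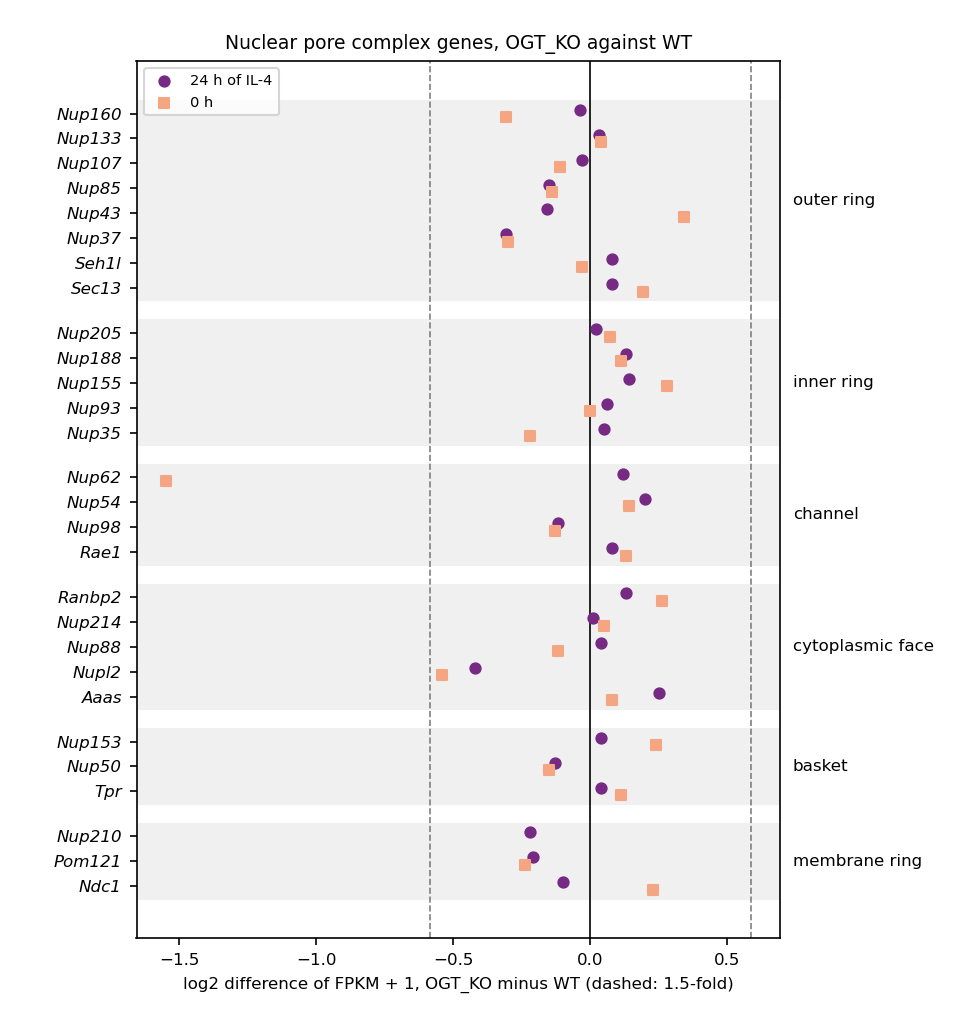
Knockout against WT for each nuclear pore gene, as the log2 difference of FPKM + 1 at 24 h and at 0 h. All genes lie between -0.42 and 0.25 at 24 h, and all but Nup62 (-1.55) and Nupl2 (-0.54) between -0.31 and 0.34 at 0 h. Dashed lines mark 1.5-fold.

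Nupl2 was the member with the largest difference between genotypes that was shared by both times. The knockout held 62.5% of the WT level at 24 h (-0.42) and 55.0% at 0 h (-0.54). Its values rest on an estimated 71 to 141 fragments, and its log2 ratios without a pseudocount were -0.68 at 24 h and -0.86 at 0 h, with a counting error of about 0.21 each. On the scale of FPKM + 1 it is not past 1.5-fold at either time, but with a pseudocount of 0.1 it is past 1.5-fold lower at both, at -0.64 at 24 h and -0.81 at 0 h. Nupl2 lies on chromosome 5 (24164963 to 24184013, + strand) and its exons overlap those of no other annotated gene. Both knockout libraries also lay below both WT libraries for Nup98 (-0.12 at 24 h and -0.13 at 0 h) and Nup50 (-0.13 and -0.15), so 3 of 28 members (10.7%) had that order, against 16.8% of all genes. Both knockout libraries lay above both WT libraries for Ranbp2 (0.13 at 24 h and 0.26 at 0 h), Aaas (0.25 and 0.08) and Tpr (0.04 and 0.11), again 3 of 28 (10.7%), against 7.78% of all genes. Of these 6 genes, 4 carry FG repeats: Nup98, Nupl2 and Nup50 were lower in the knockout and Ranbp2 was higher. The 9 FG genes as a list had 5 above 0 at 24 h and 4 above 0 at 0 h, with medians of 0.01 and -0.13.

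Among the scaffold genes the difference between genotypes was small at both times. All 5 inner ring genes were higher in the knockout at 24 h, by 0.02 to 0.14, and 3 of 5 at 0 h, where Nup155 was at 0.28 and Nup35 at -0.22. In the outer ring, Nup85 (-0.15 at 24 h and -0.14 at 0 h) and Nup37 (-0.31 and -0.30) were lower at both times. The sign of Nup37 at 0 h was fixed by the filter, since only WT reached 1 FPKM. Nup160 was lower mainly at 0 h (-0.04 at 24 h and -0.31 at 0 h). Nup43 differed in sign between the times (-0.16 at 24 h and 0.34 at 0 h), with ratios without a pseudocount of -0.23 and 0.54 and counting errors of about 0.24 and 0.31. Pom121 was lower in the knockout at both times (-0.21 at 24 h and -0.24 at 0 h), and Ndc1 had opposite signs (-0.10 and 0.23). Across 27 members the differences at 0 h and 24 h, which share no library, had a Pearson r of 0.23 and a Spearman rho of 0.46, and 0.64 and 0.57 without Nup62. With the libraries rescaled, Nup160 and Nup107 changed sign at 24 h, and Seh1l and Nup93 at 0 h, all from differences of 0.04 or less.

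Nup62 stood apart from the other members. It encodes the FG protein at the heart of the central channel, long known as a protein rich in O-linked N-acetylglucosamine, and lies on chromosome 7 (44816088 to 44830812, + strand). It stood at 9.93 FPKM at 24 h and 5.33 FPKM at 0 h in the knockout, and at 9.07 FPKM at 24 h and 17.5 FPKM at 0 h in WT. The 24 h libraries were close together, while at 0 h WT was the highest of the 4 libraries and the knockout the lowest. At 24 h against 0 h, Nup62 was higher in the knockout (0.79) and lower in WT (-0.88). The knockout held 109% of the WT level at 24 h (0.12) and 30.5% at 0 h (-1.55). The knockout response minus the WT response was 1.66, and Nup62 was the only member past 1.5-fold on this measure, which 3.82% of all genes were in that direction. In either direction 6.92% of all genes were, so 1 of 28 members is not above that share. The next in size was Nup43 at -0.50.

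**Figure D5:**
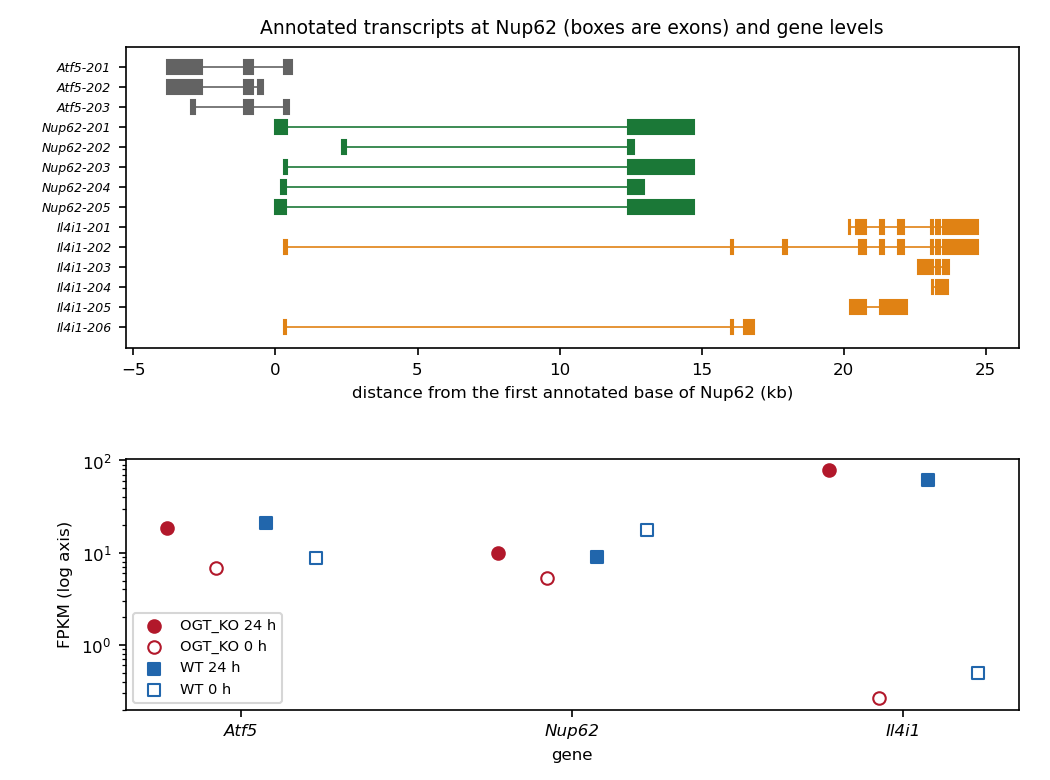
Nup62 and the genes that share exon bases with it, Il4i1 and Atf5, in the 4 libraries (FPKM, 1 point per library, no replicates), with the exons of their annotated transcripts drawn by distance from the Nup62 start. Nup62 is highest in WT at 0 h (17.5 FPKM) and lowest in the knockout at 0 h (5.33 FPKM), while both neighbours are lowest in the knockout at 0 h too but highest at 24 h.

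The values behind Nup62 are an estimated 549 fragments at 24 h and 292 at 0 h in the knockout, and 523 at 24 h and 1040 at 0 h in WT, so the log2 ratio between genotypes at 0 h, -1.71 without a pseudocount, has a counting error of about 0.10. Its exons overlap those of neighbouring genes: 97 of its 2854 exon bases are shared with Il4i1 on the same strand, and 82 with Atf5 on the opposite strand. Some annotated transcripts of Il4i1, the IL-4-induced amino acid oxidase, begin inside the first exon of Nup62. Il4i1 stood at 78.7 and 0.264 FPKM at 24 h and 0 h in the knockout, and at 60.9 and 0.499 FPKM in WT. Atf5, a transcription factor of the stress response, stood at 18.6 and 6.86 FPKM at 24 h and 0 h in the knockout, and at 21.1 and 8.76 FPKM in WT. Both neighbours, like Nup62, were lowest in the knockout at 0 h, but both were highest at 24 h, whereas Nup62 was highest in WT at 0 h. Their part in the Nup62 values was not tested. A level in 1 library alone that lies 1.5-fold or more above, or below, each of the other libraries was found for 708 of 12000 genes (5.90%). Among the 28 members Nup62 was the only one (3.57%), with the knockout at 0 h below, as in 0.983% of all genes, and WT at 0 h above, as in 0.950%. Whether a second culture would show this was not tested.

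The genes that work with the pore were described as lists. Of those named next, Rangrf, Ranbp1, Rcc1, Pcid2, Ahctf1, Banf1, Lbr, Tor1aip1 and Cdc20 share exon bases with another gene. In the Ran cycle, 7 of 7 genes were higher at 24 h in both genotypes, with medians of 0.67 in the knockout and 0.56 in WT, and 5 and 3 were past 1.5-fold higher. The shares over all genes were 52.7% in the knockout and 52.0% in WT for differences above 0, and 13.8% and 13.3% for 1.5-fold higher. Rangrf, at 1.26 FPKM at 24 h and 0.422 FPKM at 0 h in the knockout and at 1.26 FPKM at 24 h and 0.605 FPKM at 0 h in WT, is among the 7 in both and among the 5 in the knockout, and was kept only through its 24 h values. Ran stood at 59.9 and 28.2 FPKM at 24 h and 0 h in the knockout, and at 67.5 and 30.4 FPKM in WT (1.06 and 1.13). Ranbp1, which helps release Ran from exported complexes, stood at 34.7 and 20.3 FPKM at 24 h and 0 h in the knockout, and at 48.8 and 20.0 FPKM in WT (0.74 and 1.25). Rcc1, the exchange factor that charges Ran with GTP on chromatin, was at 0.97 in the knockout and 0.48 in WT, and Nutf2, which carries Ran back into the nucleus, at 0.62 and 0.60. The transport receptors differed less. Of 7 exportins, 6 were above 0 in the knockout and 7 in WT (medians 0.37 and 0.26), with none past 1.5-fold, beside the same shares of all genes. Of 16 importins, 13 were above 0 in the knockout and 12 in WT (median 0.17 in both), beside 52.7% and 52.0% of all genes. Kpna2 was at 0.60 in the knockout.

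Tnpo1, the import receptor of many RNA-binding proteins, was the one transport receptor past 2-fold between genotypes. It stood at 8.17 and 15.4 FPKM at 24 h and 0 h in the knockout, and at 18.5 and 17.2 FPKM in WT, low in the knockout at 24 h alone (-1.09 against WT). Such a low value in that library alone was found for 0.650% of all genes. Importins were lower in the knockout in 10 of 16 cases at 24 h and 12 of 16 at 0 h (medians -0.05 and -0.14), beside 58.6% and 59.5% of all genes, whose median was -0.05 at both times.

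Of 12 partners of the pore in assembly and mRNA export, 10 were above 0 with IL-4 in the knockout and 9 in WT (medians 0.18 and 0.10), beside 52.7% and 52.0% of all genes. Past 1.5-fold higher were 2 in the knockout and 1 in WT. Of all genes 13.8% and 13.3% were, so these counts lie near the shares over all genes. Pcid2, of the TREX-2 export complex at the basket, stood at 25.5 and 6.22 FPKM at 24 h and 0 h in the knockout, and at 19.5 and 7.70 FPKM in WT (1.88 and 1.23). Nxf1, the main mRNA export receptor, was at 0.78 in the knockout and 0.58 in WT. Ddx19b, the export helicase of the cytoplasmic face, was lower in the knockout at 0 h (-0.59), at 2.69 FPKM against 4.57 FPKM in WT. Ahctf1, which seeds new pores on chromatin, stood at 2.74 and 2.46 FPKM at 24 h and 0 h in the knockout, and at 3.93 and 3.19 FPKM in WT.

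The nuclear lamina and inner membrane genes went in both directions. Of 16 genes in the knockout 8 were above 0 with IL-4, with 5 past 1.5-fold higher and 1 lower, and of 15 in WT 9 were, with 4 higher and 2 lower. All genes had 52.7% above 0, 13.8% past 1.5-fold higher and 13.4% lower in the knockout, and 52.0%, 13.3% and 13.3% in WT, so the share of lamina genes above 0 was near that of all genes. Lmna, which encodes the A-type lamins, stood at 50.9 and 21.0 FPKM at 24 h and 0 h in the knockout, and at 49.1 and 18.1 FPKM in WT (1.24 and 1.39). Banf1, which bridges DNA and the lamina, was at 0.96 in the knockout and 1.03 in WT, and Lmnb2 at 0.81 and 0.89. Lower at 24 h were Lbr, the lamin B receptor, at -0.61 in the knockout and -0.85 in WT, and Tor1aip1 at -0.63 in WT.

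Cells that divide rebuild their pores, so 20 cell division genes were measured beside the members. With IL-4, 18 of 19 kept were above 0 in both genotypes (medians 0.53 in the knockout and 0.51 in WT), and 9 and 7 were past 1.5-fold higher. Of all genes, 52.7% and 52.0% were above 0, and 13.8% and 13.3% past 1.5-fold higher. Bub1 in both genotypes and Ccnb1 in the knockout were kept through their 24 h values only. The largest were Pcna, the sliding clamp of replication, at 1.75 in the knockout and 1.52 in WT, Mcm5 at 1.60 and 1.35, Mcm3 at 1.25 and 1.04 and Mcm2 at 1.22 and 1.21. The 7 past 1.5-fold in WT were Pcna, Mcm2, Mcm3, Mcm4, Mcm5, Mcm6 and Mcm7, and the 9 in the knockout were these with Rrm2 and Aurka. Other genes of the list differed less, such as Top2a (0.53 in the knockout and 0.43 in WT), Mki67 (0.34 and 0.16) and Ccnb2 (-0.08 and -0.13). Both lists were thus mostly higher at 24 h, and the larger differences among the division genes were mainly those of Pcna and the Mcm genes. Between genotypes, 18 of 19 were lower in the knockout at 24 h and 16 of 18 at 0 h, with medians of -0.24 and -0.37, beside 58.6% and 59.5% of all genes. Of the 16, Ccnb1 was kept through its WT value only, which fixes its direction. The pore genes had a median of 0.04 at both times, or of -0.03 at 24 h and 0.07 at 0 h without the members that share exons with another gene. Cdc20 was the one past 1.5-fold at 0 h (-0.75). The difference between the lists, and the part of cell division in the pore gene differences, were not tested.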

How the data were processed

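The 4 libraries, 1 per group, were grouped by the labels, with 1 µg of total RNA per library. Per the submitters' processing notes, STAR and StringTie were used with GRCm38 (mm10). The annotation release and strandedness are not stated in the sources used, so reads of genes that overlap on opposite strands cannot be assigned with certainty. The deposited values were read as FPKM from their totals, since the table names no unit. Symbols and positions came from GENCODE M21, which named 52403 of 52550 rows (147 kept their identifier). Rows sharing a symbol were summed, to 52476 names. Members and lists were chosen with earlier results of these data known.

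A gene was kept for a comparison at 1 FPKM or more in at least 1 of its libraries. Differences are log2(FPKM + 1). The genes named are all members, Ogt, Mgea5, the IL-4 markers, genes sharing exons with a member where a result turned on them, and up to 3 genes per related list past 1.5-fold, with a few others given as context. No count model was used. Depth was estimated as the most common value times length of 1-exon genes over 1 kb. Fragment numbers use the longest coding transcript, are approximate and cover counting error only. The alternatives were pseudocounts of 0.1 and 5, no filter or a filter at 5 FPKM, rescaled libraries, and members with overlapping exons left out. The steps were tested on simulated data. Python 3.11.15, pandas 2.3.3, numpy 2.4.6 and matplotlib 3.10.9 were used.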

Additional observations from a re-analysis of the deposited data

Results flagged for a closer look

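Nup62 was the one member whose IL-4 response, and whose difference between genotypes, had opposite signs with at least one side past 1.5-fold. With IL-4 its log2 difference was 0.79 in the knockout and -0.88 in WT. The knockout against WT was at 0.12 at 24 h and -1.55 at 0 h. These are the same 4 values seen along time and along genotype. The difference was not tested, since each group is 1 library, and 97 of the 2854 exon bases of Nup62 are shared with Il4i1 and 82 with Atf5.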

How the results depend on the processing

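No paired analysis was possible because each group holds 1 library and the labels give no replicate numbers. Medians of the members moved by less than 0.1 on the log2 scale, and counts by no more than 1.5 times, except as follows. A pseudocount of 0.1 gave 9 members past 1.5-fold and 1 past 2-fold with IL-4 in the knockout, and between genotypes 1 past 1.5-fold at 24 h (Nupl2) and 2 at 0 h (Nup62 and Nupl2). A pseudocount of 5 gave medians of 0.16 with IL-4 in the knockout and 0.20 in WT, with 1 and 2 members past 1.5-fold and 0 past 2-fold in WT. At 5 FPKM or more the median with IL-4 in the knockout was 0.39 over 21 members. Without members that share exons, 3 were past 1.5-fold with IL-4 in the knockout, and 0 were past 1.5-fold or 2-fold between genotypes at 0 h. Without Nup62, a choice made after seeing the data, 0 were past 1.5-fold or 2-fold at 0 h. The pseudocount moves the size of low genes by construction, whether or not they are members. The shares of all genes past the same folds under these alternatives are not given here. The counts above therefore show how the calls depend on the setting, not a stronger or weaker result for the members. No member past 1.5-fold changed direction under any alternative, and rescaling put 2 values under 1.5-fold, Nup160 (0.58) and Nup205 (0.55) in WT. The small median between genotypes at 24 h went from 0.04 to -0.03 without members that share exons. Depth limits Nup37, Nup43, Nup35, Nupl2 and Nup210, and the 1 library per group limits every value.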
